A study of Homo sapiens with 6 samples.

Results

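The integrin and laminin chain genes were the 38 protein-coding genes whose symbols follow the naming of integrin alpha and beta chains or of laminin alpha, beta and gamma chains, of 58735 genes listed. They comprised 18 integrin alpha, 8 integrin beta, 5 laminin alpha, 4 laminin beta and 3 laminin gamma chains. Membership followed the symbol alone, but the family was chosen with earlier results of these data known. The study compared HGC-27 cells, a line from an undifferentiated human gastric carcinoma, carrying a short hairpin against ACAT2 (shACAT2, 3 libraries) or a control hairpin (shNC, 3 libraries), to ask which transcripts shift when ACAT2, the cytosolic acetoacetyl-CoA thiolase, is depleted. Both groups received the pSIH-H1-Puro vector for 24 h and were then held in puromycin for 7 days, so every library came from a selected, vector-bearing population. GEO's genotype entries are WT for shNC and ACAT2 knockdown for shACAT2. The labels do not say which ACAT2 hairpin was used or whether libraries of a group came from separate cultures, so each test measures the spread between these libraries, which may be technical.

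Integrins are cell-surface receptors made of an alpha and a beta chain, and the pairing sets which matrix protein is bound. Laminins are trimers of an alpha, a beta and a gamma chain and are the main cell-binding proteins of basement membranes, the sheets on which gastric epithelium rests. A laminin alpha chain carries the globular end that integrins bind, and an integrin beta chain carries the tail that talin and kindlin grip inside the cell.

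Levels are given in FPKM, fragments scaled for gene length and library size, which allows a rough comparison of chains with each other. The length used for all 38 chains was the summed exon length of the gene, not that of the transcripts present. Rankings and sums of different chains are therefore approximate. ACAT2 itself stood at 14.2, 11.7 and 12.7 FPKM in shNC and at 6.19, 5.46 and 6.05 in shACAT2 (log2 fold change -1.01, limma adjusted p = 0.0059). The libraries held 14086416 to 16067486 fragments on genes. Genes with a fragment in 1 library alone numbered 7477 in shACAT2-3 and 416 to 657 in each of the others. Controls shNC-2 and shNC-3 were much the most alike of any 2 libraries of a group, with a chi-square per gene of 1.71 against 10.8 to 39.3 for the other pairs. Markers of gastric epithelium were near 0: the 7 gastric mucosa markers summed to 0.0413 to 0.212 FPKM in shNC and 0.0428 to 0.327 in shACAT2, with TFF1, GKN1 and PGC at 0 in all 6 libraries, and the 8 epithelial markers to 2.02 to 2.38 and 2.80 to 3.10. The 7 fibroblast markers summed to 306 to 341 FPKM in shNC and 444 to 537 in shACAT2, 3 of 6 tested being called higher (with the replicate block, 5 higher and 1 lower). COL3A1 and COL1A1 made up most of that sum, while PDGFRA of the same list averaged 2.46 FPKM in shNC and 1.56 in shACAT2 (limma adjusted p = 0.0701; 0.0431 with the block, lower). The 6 mesenchymal markers summed to 341 to 404 FPKM and 464 to 617, with 1 of 5 tested called higher, or 2 with the block. VIM and TWIST1 made up most of that sum, while CDH2 of the same list averaged 0.0249 FPKM in shNC and 0.0269 in shACAT2. Beside these counts of markers called, 5.1% of all genes tested were called, 3.3% higher and 1.81% lower, or 12.5% with the block. Of the epithelial markers, CDH1 averaged 0.161 FPKM in shNC and 0.863 in shACAT2, and CLDN7 went the other way, at 1.01 and 0.731. Leukocyte, endothelium and platelet markers summed to at most 0.540, 0.0366 and 2.96 FPKM in shNC and 1.24, 0.569 and 2.27 in shACAT2. GP1BA made up most of the platelet sum. The part these markers have in the differences below was not tested. In bulk RNA, fewer cells of a kind and less RNA per cell cannot be told apart.

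Of the 5 laminin alpha chains, 3 were called lower after ACAT2 knockdown, and the integrin alpha chain ITGA3 was called higher. Of the 38 chains, 16 averaged 1 FPKM or more in 1 of the groups or both and were tested: 9 integrin and 7 laminin chains. Of these, 4 were called at an adjusted p below 0.05 by limma on log2(FPKM + 1): LAMA5, LAMA1 and LAMA3 were lower and ITGA3 was higher. That is 25% of the chains tested, where 5.1% of all 13832 genes tested were called, 3.3% higher and 1.81% lower. The median log2 fold change was -0.48 over the 7 laminin chains, 0.062 over the 9 integrin chains and 0.016 over all genes. No chain passed an absolute log2 fold change of 1 at an unadjusted p below 0.05 (7 of 16 had that p), where 1.5% of all genes did. With a pseudocount of 0.1 or with limma-voom on the recovered fragments, 1 chain passed it, LAMA1. With the replicate number as a block, 8 of 16 chains were called, where 12.5% of all genes were: ITGB5, LAMB2 and ITGAV joined as higher and LAMA2 as lower. The labels do not say that libraries of the same number were paired between groups, so the block and the ratios within numbers assume it. None of the 16 chains was called by limma when any single control, or shACAT2-2, was left out, although 7 of 16 had an unadjusted p below 0.05 in each of these fits. Calls over all genes fell as well, from 706 of 13832 to 135 of 13918 without shNC-1 and 101 of 13875 without shNC-2. They were 63 of 13882 without shNC-3 and 129 of 13959 without shACAT2-2, so the loss was not particular to the chains. Without shACAT2-1 the count of chains called was 3 (862 of 13919 genes over all), and without shACAT2-3 it was 5 (704 of 13797).

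**Figure D1:**
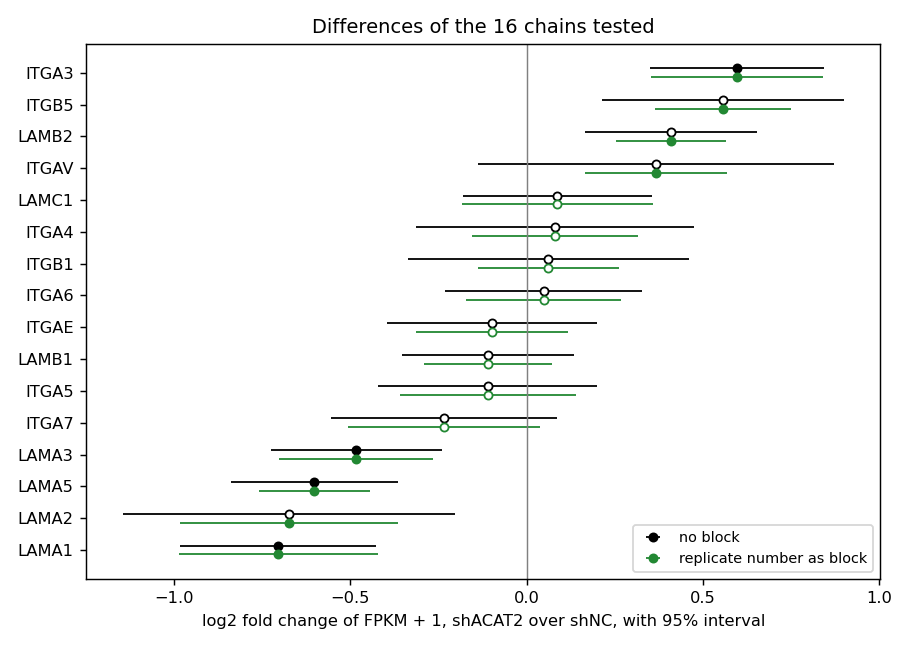
Log2 fold change of FPKM + 1, shACAT2 over shNC, for the 16 chains tested, with 95% intervals, fitted without (black) and with (green) the replicate number as a block; filled points were called at an adjusted p below 0.05. The 4 laminin alpha chains tested lie lowest, from -0.70 to -0.48, and ITGA3, ITGB5 and LAMB2 highest.

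Of the laminin alpha chains, LAMA5 was the most abundant. It is the long alpha chain found in most adult epithelial basement membranes, and its gene lies on the minus strand at chr20:62307955-62367312 (hg38, as are all positions here). LAMA5 stood at 25.6, 24.0 and 22.8 FPKM in shNC and at 16.6, 15.6 and 14.5 in shACAT2. The groups did not overlap, and each group spanned a narrow range (24.1 ± 1.41 and 15.6 ± 1.03 FPKM, SD, n = 3). The level was 1.55-fold lower, with a log2 fold change of -0.60 (SE 0.10, 95% interval -0.84 to -0.37, limma adjusted p = 0.0239), on 3114 to 5613 fragments per library. Between libraries of the same replicate number the log2 ratio of FPKM was -0.63, -0.63 and -0.65. The adjusted p was 0.0937 to 0.132 when any single control, or shACAT2-2, was left out. LAMA5 shares 244 exon bases, 1.71% of its length, with ADRM1 on the other strand, which stood at 46.8 FPKM in shNC and 61.0 in shACAT2. The strand setting of the counting is not given in the sources used here.

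LAMA1, the alpha chain of the first laminin described and mainly an embryonic chain, showed the largest drop in fold among the chains tested. Its gene lies on the minus strand at chr18:6941744-7117814. It stood at 2.79, 2.86 and 2.74 FPKM in shNC and 1.12, 1.26 and 1.64 in shACAT2, so the lowest control lay well above the highest knockdown library. The level was 2.09-fold lower (log2 fold change of FPKM + 1 -0.70, SE 0.12, 95% interval -0.98 to -0.43, limma adjusted p = 0.0241). Within replicate numbers the log2 ratio of FPKM was -1.32, -1.18 and -0.74. With any single control, or shACAT2-2, left out its adjusted p was 0.0941 to 0.129. LAMA1 shares 1641 exon bases, 10.3% of its length, with AP002409.1, which stood at 0 FPKM in shNC and 0.0194 in shACAT2.

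LAMA3, the alpha chain of the laminin that anchors epithelial hemidesmosomes, is encoded on the plus strand at chr18:23689443-23956222. LAMA3 stood at 2.94, 3.16 and 3.07 FPKM in shNC and at 1.66, 1.93 and 2.14 in shACAT2, with no overlap. The level was 1.60-fold lower (log2 fold change -0.48, SE 0.10, 95% interval -0.73 to -0.24, limma adjusted p = 0.0464). This call was the least firm of the 4. Its adjusted p was 0.0526 with scaling to total fragments, 0.0604 with upper-quartile scaling, 0.0581 without shACAT2-1 and 0.121 to 0.202 with any single control, or shACAT2-2, left out.

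LAMA2, the alpha chain of muscle and nerve basement membranes, is encoded on the plus strand at chr6:128883141-129516569. LAMA2 stood at 11.1, 12.9 and 13.7 FPKM in shNC and at 5.20, 9.17 and 8.67 in shACAT2. The groups did not overlap, but shACAT2-1 lay far under the other knockdown libraries. The log2 fold change was -0.67 (SE 0.20, 95% interval -1.15 to -0.20, limma adjusted p = 0.105), and with the replicate block the adjusted p was 0.0368. shNC-1 was also the lowest of its group, and the log2 ratio of FPKM within numbers was -1.10, -0.49 and -0.66. Without shACAT2-1 the log2 fold change was -0.45. The remaining alpha chain, LAMA4, of vessel walls, was at most 0.114 FPKM in any library.

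The sequences around the annotated starts of the laminin alpha genes that fell or were lower in every knockdown library are shown so that their composition can be compared, as RefSeq gives them for GRCh38.p14, from 250 bases before to 50 after the start, 5′ to 3′ on the gene's strand. Capitals mark 3 motifs searched on both strands with no overlap between different motifs in the windows shown: GGGCGG, the GC box, TGANTCA, the AP-1 site, and CATTCC, the core recognised by TEAD factors. These are held by 45%, 7.71% and 14% of the 35116 RefSeq windows of this length, and by 14, 2 and 4 of the 26 chain genes with an entry. LAMA5, at chr20:62367263-62367562 on the minus strand, had a GC content of 82.7%, against a median of 58.7% over all windows, with 5 GC boxes. LAMA3, at chr18:23872770-23873069 on the plus strand, is an internal start 183577 bases downstream of the gene's first base, with 2 AP-1 matches and 1 GC box. LAMA2, at chr6:128882888-128883187 on the plus strand, held 1 TEAD core and neither of the other motifs. A match describes the letters only. LAMA1 and ITGA3 had no entry.
LAMA5: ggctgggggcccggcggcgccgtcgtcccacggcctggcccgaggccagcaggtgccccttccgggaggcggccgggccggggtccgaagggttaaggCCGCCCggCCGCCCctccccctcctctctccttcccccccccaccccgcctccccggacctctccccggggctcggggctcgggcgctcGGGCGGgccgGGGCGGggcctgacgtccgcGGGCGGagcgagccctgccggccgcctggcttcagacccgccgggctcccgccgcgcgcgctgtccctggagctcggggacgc
LAMA3: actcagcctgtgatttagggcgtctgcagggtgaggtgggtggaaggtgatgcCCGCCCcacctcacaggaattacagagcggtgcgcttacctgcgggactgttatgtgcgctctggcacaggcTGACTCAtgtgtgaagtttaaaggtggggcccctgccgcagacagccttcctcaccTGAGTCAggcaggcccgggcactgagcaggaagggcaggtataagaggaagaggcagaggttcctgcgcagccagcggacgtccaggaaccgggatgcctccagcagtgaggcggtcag
LAMA2: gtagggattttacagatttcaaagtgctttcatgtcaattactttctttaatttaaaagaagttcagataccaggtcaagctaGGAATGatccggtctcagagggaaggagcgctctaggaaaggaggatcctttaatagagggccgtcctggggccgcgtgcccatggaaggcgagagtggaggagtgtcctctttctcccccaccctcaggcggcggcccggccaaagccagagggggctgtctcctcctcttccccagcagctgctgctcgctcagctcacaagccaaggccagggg

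Summed over the 5 genes, the laminin alpha chains stood at 42.5, 43.0 and 42.4 FPKM in shNC and at 24.7, 28.0 and 27.1 in shACAT2. The knockdown libraries held 0.624 times the control level (42.6 ± 0.339 and 26.6 ± 1.73 FPKM, SD, n = 3). A two-sided exact permutation test of 3 against 3 cannot go below p = 0.1, which this sum reached. The makeup of the sum moved little for the main chains: LAMA5 supplied 56.6% of it in shNC and 58.8% in shACAT2, LAMA2 29.5% and 28.6%, and LAMA3 7.16% in both. Only LAMA1 among the 4 chains tested had shares that did not overlap, at 6.46% to 6.64% in shNC and 4.49% to 6.05% in shACAT2.

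**Figure D2:**
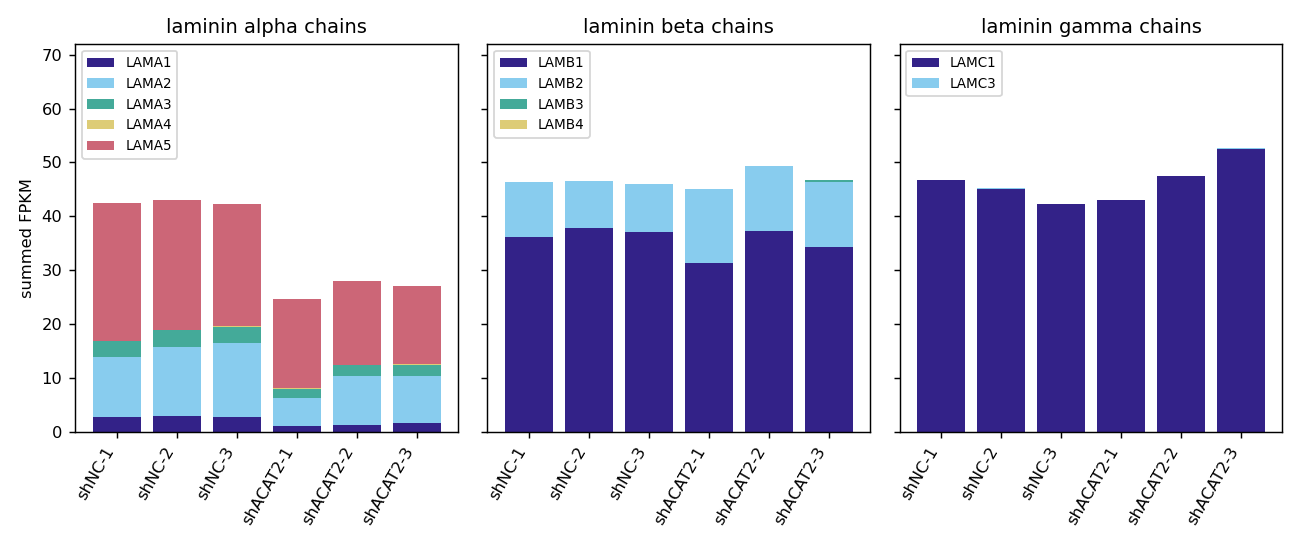
FPKM of the laminin alpha and beta chains and of LAMC1 and LAMC3 in each library, stacked by gene on a common linear axis starting at 0. The alpha chains sum to 42.4 to 43.0 FPKM in shNC and 24.7 to 28.0 in shACAT2, while the groups overlap in the other panels.

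Of the beta and gamma chains, which complete the trimer, none was called by limma on log2(FPKM + 1) without the replicate block, and 1 of the 3 tested, LAMB2, had an unadjusted p below 0.05. LAMB1, the most widely used beta chain, stood at 36.1, 37.8 and 37.0 FPKM in shNC and at 31.4, 37.2 and 34.3 in shACAT2 (log2 fold change -0.11, 95% interval -0.35 to 0.14, limma adjusted p = 0.575). LAMC1, the gamma chain shared by most laminins, stood at 46.8, 45.2 and 42.3 FPKM in shNC and at 43.1, 47.5 and 52.6 in shACAT2 (log2 fold change 0.087, 95% interval -0.18 to 0.36, limma adjusted p = 0.695). The groups of both genes overlapped. LAMB2, the beta chain of the neuromuscular junction and the kidney filter, stood at 10.2, 8.68 and 8.90 FPKM in shNC and at 13.6, 12.1 and 12.2 in shACAT2. Every knockdown library lay above every control, with a log2 fold change of 0.41 (SE 0.10, 95% interval 0.17 to 0.65, limma adjusted p = 0.0702). With the replicate block LAMB2 was called (adjusted p = 0.0290), as it was, narrowly, by limma-voom on fragments without the block (adjusted p = 0.0498). Its log2 ratio of FPKM within numbers was 0.41, 0.48 and 0.45.

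LAMB2 supplied 22.1%, 18.6% and 19.4% of the beta chain FPKM in shNC and 30.2%, 24.6% and 26.0% in shACAT2, with LAMB1 making up nearly all the rest. The summed beta chains stood at 46.3 ± 0.335 FPKM in shNC and 47.0 ± 2.16 in shACAT2, and the summed gamma chains at 44.8 ± 2.30 and 47.8 ± 4.87 (SD, n = 3). The groups overlapped in both sums (two-sided exact permutation p = 0.7 and 0.4). In shNC the alpha, beta and gamma sums lay between 42.3 and 46.9 FPKM in every library. In shACAT2 the alpha sum was 24.7 to 28.0 FPKM, and the beta and gamma sums were 43.1 to 52.9.

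LAMB3, a beta chain of epithelial laminin, was nearly silent. It had 0, 1 and 0 fragments in shNC and 3, 1 and 20 in shACAT2. It was highest in shACAT2-3, the library with the most genes seen nowhere else. LAMB3 supplied 0.00941% of the beta chain FPKM in shNC and 0.243% in shACAT2. Of 15 trimers listed from known chain combinations, 8 had all chains at 1 FPKM or more in both groups: those pairing LAMA1, LAMA2, LAMA3 or LAMA5 with LAMB1 or LAMB2 and with LAMC1. The alpha chain was the scarcest chain of 6 of these 8 in shNC. In LM221 the scarcest chain was LAMB2 in shNC (9.27 FPKM) and LAMA2 in shACAT2 (7.68 FPKM), and in LM521 it was LAMB2 in both (9.27 and 12.6 FPKM). RNA levels do not give the trimers assembled.

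Among the integrin beta chains, ITGB1, the partner of most alpha chains, supplied 82.8% of the summed FPKM in shNC and 76.7% in shACAT2. ITGB1 stood at 36.2, 45.3 and 48.5 FPKM in shNC and at 37.0, 51.8 and 47.3 in shACAT2. The groups overlapped almost fully, replicate number 1 being lowest in both (log2 fold change 0.062, 95% interval -0.34 to 0.46, limma adjusted p = 0.862). ITGB5, which pairs with ITGAV to bind vitronectin, stood at 8.46, 7.08 and 6.90 FPKM in shNC and at 13.8, 11.3 and 9.61 in shACAT2. It was higher in every knockdown library, by 1.54-fold in the mean. Its log2 fold change was 0.56 (SE 0.15, 95% interval 0.21 to 0.90, limma adjusted p = 0.0777), and with the replicate block it was called (adjusted p = 0.0253). Without the block it was also called by limma-voom on fragments under either filter (adjusted p = 0.0352 and 0.0349), under upper-quartile scaling (0.0465) and without shACAT2-3 (0.0477), but not in the other fits, up to 0.264 without shNC-3. The log2 ratio of FPKM within numbers was 0.70, 0.67 and 0.48, and number 1 was the highest of both groups. The gene lies on the minus strand at chr3:124761948-124901418.

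ITGB8, which pairs with ITGAV and takes part in activating latent TGF-beta, was below the filter on level. It stood at 0.414, 0.387 and 0.452 FPKM in shNC and at 0.739, 0.806 and 0.862 in shACAT2, a gap with no overlap on 95 to 203 fragments per library. The mean was 1.92-fold higher, and the log2 ratio within numbers was 0.84, 1.06 and 0.93. When genes were kept for having at least 10 fragments in every library instead, ITGB8 was called (log2 fold change of FPKM + 1 0.35, SE 0.06, limma adjusted p = 0.0187), with 5 of 24 chains called there against 7.18% of all genes. With no filter its adjusted p was 0.395. ITGB8 shares 98 exon bases, 0.647% of its length, with AC004130.1 on the other strand (0.274 FPKM in shNC and 0.626 in shACAT2).

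The sequences around the starts of ITGB5 and ITGB8, the beta chains that were higher in every knockdown library at these levels, are shown in the same way. ITGB5, at chr3:124901369-124901668 on the minus strand, held 2 GC boxes at a GC content of 49.7%. ITGB8, at chr7:20330650-20330949 on the plus strand, held 2 GC boxes at 71.7%. Neither window held the AP-1 or TEAD letters. Over the 13 chains tested that had an entry, the GC content ran from 49.7% to 82.7%, with ITGB5 the lowest and LAMA5 the highest.
ITGB5: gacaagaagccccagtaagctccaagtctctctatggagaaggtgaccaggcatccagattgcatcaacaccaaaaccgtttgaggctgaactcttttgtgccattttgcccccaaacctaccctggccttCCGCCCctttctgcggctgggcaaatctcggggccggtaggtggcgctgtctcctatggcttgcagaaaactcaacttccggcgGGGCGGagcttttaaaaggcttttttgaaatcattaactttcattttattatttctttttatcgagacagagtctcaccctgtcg
ITGB8: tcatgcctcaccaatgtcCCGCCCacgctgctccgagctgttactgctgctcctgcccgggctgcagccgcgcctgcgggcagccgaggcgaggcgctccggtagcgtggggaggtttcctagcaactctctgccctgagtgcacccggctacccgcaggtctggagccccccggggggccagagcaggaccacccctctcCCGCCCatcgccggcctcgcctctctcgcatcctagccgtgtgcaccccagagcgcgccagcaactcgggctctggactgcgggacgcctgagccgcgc

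Among the integrin alpha chains, ITGA3 was the chain called. It forms with ITGB1 a receptor for laminins that contain LAMA3 or LAMA5, and its gene lies on the plus strand at chr17:50055968-50090481. ITGA3 stood at 1.63, 1.70 and 1.66 FPKM in shNC and at 3.41, 2.99 and 2.71 in shACAT2. The controls were nearly equal and every knockdown library lay well above them. The level was 1.82-fold higher, with a log2 fold change of FPKM + 1 of 0.60 (SE 0.10, 95% interval 0.35 to 0.84, limma adjusted p = 0.0270), on 245 to 508 fragments per library. The log2 ratio of FPKM within numbers was 1.06, 0.82 and 0.71. Its adjusted p was 0.0979 to 0.136 with any single control, or shACAT2-2, left out. ITGA3 supplied 3.89% to 4.08% of the alpha chain FPKM in shNC and 5.67% to 8.36% in shACAT2.

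The other alpha chains of laminin receptors were not called. ITGA6, which pairs with ITGB1 or ITGB4, stood at 2.82, 2.98 and 3.28 FPKM in shNC and at 2.61, 3.52 and 3.41 in shACAT2, with overlapping groups (log2 fold change 0.048, 95% interval -0.23 to 0.33, limma adjusted p = 0.845). ITGA7, the laminin receptor chain of muscle, stood at 1.80, 1.42 and 1.37 FPKM in shNC and at 1.37, 1.10 and 0.983 in shACAT2. It was lower within each replicate number, and the lowest control and the highest knockdown library both stood at 1.37 FPKM (log2 fold change -0.23, 95% interval -0.55 to 0.085, limma adjusted p = 0.345). ITGA6 supplied 7.27% of the alpha chain FPKM in shNC and 6.88% in shACAT2, and ITGA7 3.70% and 2.55%.

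ITGAV, the alpha chain shared by the vitronectin and TGF-beta activating receptors, stood at 8.40, 12.1 and 11.5 FPKM in shNC and at 10.0, 15.99 and 16.5 in shACAT2. The groups overlapped because number 1 was low in both. The log2 fold change was 0.37 (SE 0.21, 95% interval -0.14 to 0.87, limma adjusted p = 0.350), and with the replicate block ITGAV was just called (adjusted p = 0.0493). The log2 fold change was 0.22 without shNC-1 and 0.58 without shACAT2-1, and no other fit called it. Within numbers its log2 ratio of FPKM was 0.26, 0.41 and 0.52. ITGA5, the fibronectin receptor chain and the most abundant alpha chain in shNC, stood at 14.1, 11.8 and 12.6 FPKM in shNC and at 13.3, 12.4 and 9.94 in shACAT2 (log2 fold change -0.11, 95% interval -0.42 to 0.20, limma adjusted p = 0.663). It supplied 31.0% of the alpha chain FPKM in shNC and 26.2% in shACAT2, while ITGAV supplied 25.5% and 30.5%, and the groups of both shares overlapped.

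ITGA4, better known as the VCAM1 receptor chain of leukocytes, stood at 6.71, 8.13 and 7.96 FPKM in shNC and at 6.09, 9.48 and 9.04 in shACAT2 (log2 fold change 0.081, 95% interval -0.31 to 0.48, limma adjusted p = 0.815). ITGAE, the E-cadherin receptor chain of intraepithelial T cells, stood at 2.88, 2.29 and 2.42 FPKM in shNC and at 2.61, 1.89 and 2.41 in shACAT2 (log2 fold change -0.098, 95% interval -0.39 to 0.20, limma adjusted p = 0.692). Both sets of groups overlapped. ITGAE shares 427 exon bases, 6.41% of its length, with HASPIN on the other strand (7.90 FPKM in shNC and 6.37 in shACAT2), and its beta partner ITGB7 was at most 0.412 FPKM in any library. The summed integrin alpha chains stood at 41.6 ± 1.42 FPKM in shNC and 46.0 ± 4.51 in shACAT2, and the summed beta chains at 52.1 ± 5.53 and 58.9 ± 5.96 (SD, n = 3). Both sums overlapped between groups (two-sided exact permutation p = 0.3 for each).

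**Figure D3:**
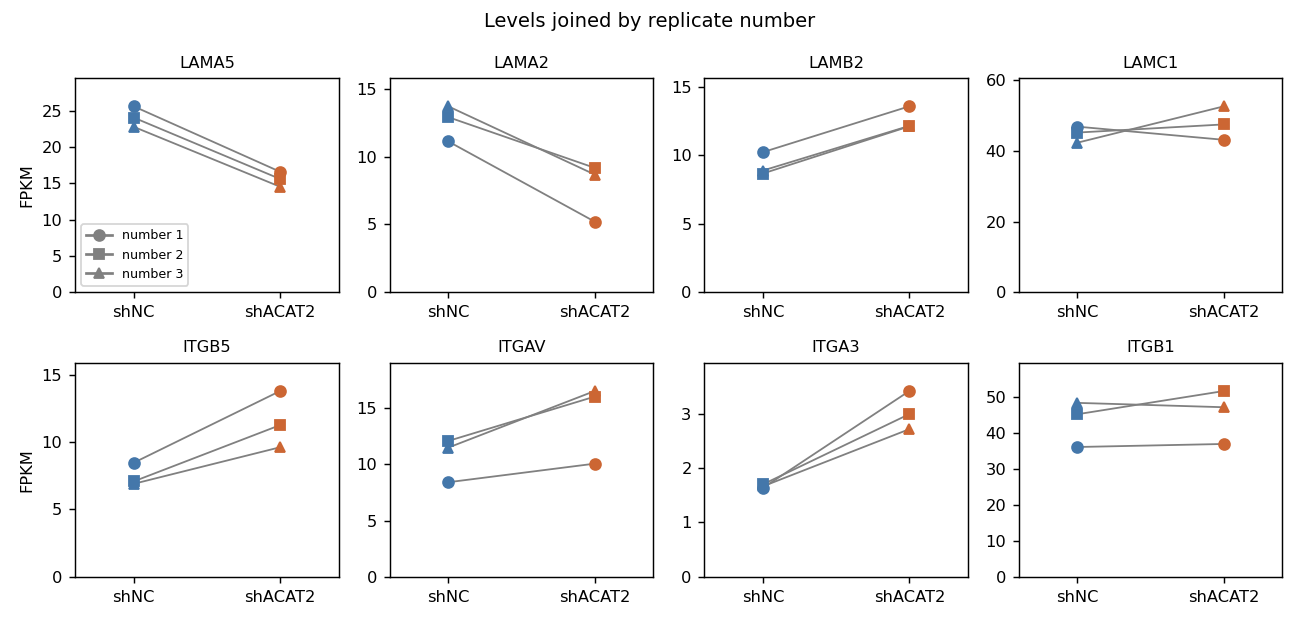
FPKM of 8 chains in shNC and shACAT2, with libraries of the same replicate number joined by a line, on linear axes starting at 0. LAMA5, LAMA2, LAMB2, ITGB5, ITGAV and ITGA3 move one way in all 3 numbers, although the groups of ITGAV overlap; LAMC1 and ITGB1 do not.

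Of 24 receptor pairs that these chains are known to form, 7 had both chains at 1 FPKM or more in both groups: ITGB1 with ITGA3, ITGA4, ITGA5, ITGA6, ITGA7 or ITGAV, and ITGAV with ITGB5. The scarcer chain of the ITGA3 and ITGB1 pair was ITGA3, at 1.66 FPKM in shNC and 3.04 in shACAT2. The scarcer chain of the ITGAV and ITGB5 pair was ITGB5, at 7.48 and 11.6 FPKM. The hemidesmosome receptor of ITGA6 and ITGB4 had ITGB4 at 0.261, 0.228 and 0.343 FPKM in shNC and 0.682, 0.409 and 0.286 in shACAT2, with overlapping groups. The collagen receptor chains ITGA2, ITGA10 and ITGA11 were at most 0.253 FPKM in any library, and ITGA1 stood between 0.635 and 1.11. ITGA1 shares 475 exon bases, 2.56% of its length, with PELO on the same strand. PELO averaged 6.645 FPKM in shNC and 8.55 in shACAT2, and its part in the ITGA1 level was not tested.

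The groups of 7 of the 16 chains tested did not overlap, 3 higher (ITGA3, ITGB5, LAMB2) and 4 lower (LAMA1, LAMA2, LAMA3, LAMA5), which is 43.8%, where 30.7% of all genes tested did not overlap.

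The other 22 chains were under the filter, with levels from 0 to 1.11 FPKM. They included the leukocyte chains ITGAL, ITGAM, ITGAX, ITGAD and ITGB2, the platelet chains ITGA2B and ITGB3, and ITGA8, ITGA9, ITGB6, LAMA4, LAMB4 and LAMC3. The highest library was shACAT2-3 for 13 of them (59.1%), as it was for 55.7% of all genes under the filter with a fragment. ITGAM had 0.480 FPKM in shACAT2-3 and at most 0.0579 in the others, and ITGAL had 0.206 against at most 0.0191. Groups did not overlap for 6 of the 22 (27.3%), 5 higher and 1 lower, where 7.06% of all genes under the filter with a fragment did not; that set includes genes with a single fragment in all, which cannot part the groups. Among those higher were ITGB8, ITGB7, ITGAM and ITGB6, and the lower one was ITGAD, at 0.311, 0.336 and 0.394 FPKM in shNC and 0.224, 0.0682 and 0.181 in shACAT2. ITGB6 had 0, 0 and 1 fragments in shNC and 6, 1 and 2 in shACAT2. Its shNC-3 and shACAT2-2 counts were equal and their FPKM differed only by library scaling. ITGB7 parted the groups narrowly, on 22, 26 and 21 fragments in shNC and 28, 27 and 27 in shACAT2. ITGB7 shares 42.1% of its length with ZNF740 on the other strand, and ITGB3 51.6% with AC068234.1. ITGAD, on 5 to 30 fragments per library, shares 146 exon bases, 3.31% of its length, with AC093520.1 on the same strand. AC093520.1 averaged 1.71 FPKM in shNC and 0.77 in shACAT2, and its part in the ITGAD difference was not tested.

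**Figure D4:**
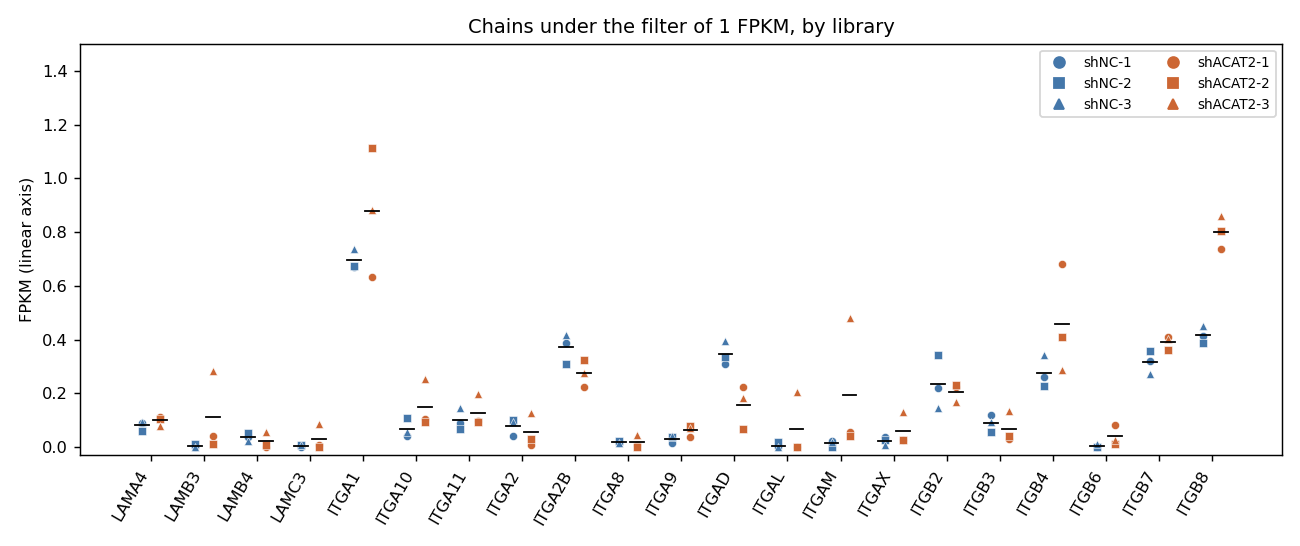
FPKM on a linear axis of 21 chains under the filter of 1 FPKM, in each library, with the group mean as a bar. ITGB8 parts the groups, and for ITGAM and ITGAL the shACAT2-3 triangle stands far above the other points.

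The proteins that meet these chains gave a background to the changes, from lists written with earlier results of these data known. Over all 13832 genes tested, 5.1% were called, 3.3% higher and 1.81% lower. In the basement membrane list, 2 of 9 genes tested were called, both lower, with a median log2 fold change of -0.26 (19 listed). HSPG2, the perlecan core protein that links laminin and collagen networks, stood at 8.05, 6.95 and 7.33 FPKM in shNC and at 3.28, 3.95 and 4.25 in shACAT2 (log2 fold change -0.81, SE 0.11, limma adjusted p = 0.0132). COL4A5, a network collagen chain, stood at 4.96, 4.54 and 4.84 FPKM in shNC and at 2.85, 3.24 and 3.12 in shACAT2 (log2 fold change -0.51, SE 0.09, limma adjusted p = 0.0258). Neither gene's groups overlapped.

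Among the other integrin ligands, 4 of 13 tested were called, all higher, with a median log2 fold change of 0.37 (25 listed, and 7 called with the replicate block). The share over all genes tested was 5.1%, or 12.5% with the block. MFGE8, an RGD protein bound by ITGAV receptors, stood at 10.7, 10.8 and 10.0 FPKM in shNC and at 44.2, 35.3 and 31.2 in shACAT2 (log2 fold change 1.70, SE 0.14, limma adjusted p = 0.0035). CTGF and CYR61, matricellular ligands of several integrins, had log2 fold changes of 1.42 and 1.28 (limma adjusted p = 0.0133 and 0.0107), and COL1A1, the fibrillar collagen chain, 0.97 (adjusted p = 0.0136).

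Inside the cell, 5 of 25 integrin adaptor genes tested were called, 4 higher and 1 lower, with a median log2 fold change of 0.26 (32 listed). Of all genes tested 5.1% were called, or 12.5% with the replicate block. With the replicate block 7 were called, 6 higher and 1 lower; ZYX and CIB1 joined (adjusted p = 0.0373 and 0.0303, against 0.0851 and 0.0854 without it). RSU1, a partner of the ILK complex, rose from 25.8 ± 1.93 to 40.9 ± 2.48 FPKM (SD, n = 3; log2 fold change 0.65, limma adjusted p = 0.0226). VCL, which joins talin to actin, rose from 37.8 ± 0.990 to 56.2 ± 4.27 FPKM (SD, n = 3; log2 fold change 0.56, limma adjusted p = 0.0308). DAB2, an adaptor for integrin endocytosis, and LIMS2, a partner of ILK, rose from 0.806 to 2.27 and from 0.265 to 1.25 FPKM (limma adjusted p = 0.0220 and 0.0287). Both are among the 4 called higher, but they averaged under 1 FPKM in shNC and passed the filter only through shACAT2. At such a control level only a gene that rose could be tested. FERMT1, the epithelial kindlin that binds beta chain tails, fell from 8.82 ± 0.504 to 5.94 ± 0.518 FPKM (SD, n = 3; log2 fold change -0.50, limma adjusted p = 0.0343). Of 10 genes tested among the other laminin receptors and hemidesmosome proteins, 0 were called by limma or by limma-voom, 1 had an unadjusted p below 0.05, and the median log2 fold change was 0.062 (11 listed). The 11 calls in the 4 lists became 1 or 2 when any single control, or shACAT2-2, was left out. Over all genes tested, the 706 calls became 63 to 135 in the same fits.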

How the data were processed

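RNA sequencing of 6 libraries (3 shACAT2, 3 shNC) was deposited by the authors as 1 table of FPKM values per gene and library, with symbols, lengths and positions that equal GENCODE release 29 for all 38 chains. The submitters' processing notes list HISAT2 2.0.5, featureCounts 1.5.0-p3, DESeq2 1.20.0 and build hg38. Strand setting is not given in the sources used here. FPKM times length gave whole fragments for 100% of values (tolerance 0.1).

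The 13832 genes averaging 1 FPKM or more in shNC, shACAT2 or both were fitted in limma 3.58.1 (R 4.3.3; trend) on log2(FPKM + 1), with Benjamini-Hochberg adjustment over all genes and calls at 0.05. Fold changes on this scale understate low genes. The test was checked on simulated data with independent libraries and with changes larger than those of the chains called. It was not checked at the effect sizes seen here, or with libraries that deviate together. Deviations from the group mean correlated between same-numbered libraries (r = 0.445, 0.126 and 0.171), although numbers 2 and 3 crossed gave 0.198 and 0.141. Only number 1 stood apart. The deviations of a group sum to 0, so the values for numbers 2 and 3 are tied to those of number 1. The labels do not say that same-numbered libraries of the groups were paired. A fit with the number as a block is given beside the calls it changes. Sums were compared by exact permutation. Other scalings, filters, pseudocount, limma-voom, and leaving out or averaging libraries were tried.

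The chains and lists were chosen with earlier results of these data known. The named genes were the chains, those passing the filter with every library, and of each related list the called genes, at most 4 per direction. Protein sequences were not used here, and 1 chain is counted but not reported by name.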

Additional observations from a re-analysis of the deposited data

How the results depend on the processing

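Of the log2 fold changes of single chains under the alternatives, 199 kept their direction and side of the threshold, 27 lost a call, 9 gained one and 5 changed sign. The 27 losses all fell on the 4 chains called. LAMA3 lost its call in 9 alternatives and kept it in 6, while ITGA3, LAMA1 and LAMA5 each lost it in 6 and kept it in 9. The 4 calls became 0 with no filter on level (limma, with 8 of 38 chains at an unadjusted p below 0.05) and 0 when controls 2 and 3 were averaged into 1 (limma, 7 of 16), 8 with the replicate block, and 0 to 5 when 1 library was left out. Over all genes, 706 of 13832 were called in the fit reported, 209 of 41161 with no filter and 83 of 13838 with averaging. The block gave 1727 of 13832, and leaving out 1 library 63 to 862 genes. Upper-quartile scaling gave 802 of 13850 and total-fragment scaling 865 of 14013. A filter of 10 fragments per library gave 1034 of 14394, or 1265 with limma-voom, and limma-voom under the filter on level 1165 of 13832. The 1 higher chain became 2 with upper-quartile scaling or a filter of 10 fragments per library, 3 with limma-voom on fragments, 3 with limma-voom under that same fragment filter (added after the data were seen), 4 with the replicate block, 0 with no filter and 0 with averaging, and 0 to 2 with 1 library left out. The 3 lower chains became 2 with upper-quartile or total-fragment scaling, 4 with the replicate block, 0 with no filter or averaging, and 0 to 3 with 1 library left out. The fit with no filter tests more genes; the cause of the other changes was not tested. Without shACAT2-3, LAMA5, LAMA1, LAMA3 and ITGA3 kept adjusted p-values from 0.0217 to 0.0488. The count past a log2 fold change of 1 was 1 in place of 0 with a pseudocount of 0.1 and with both voom fits. Genes called in the 4 related lists numbered 11 in the fit reported, 4 with no filter, 1 with averaging, 18 with the added voom fit and 1 to 13 with 1 library left out. The difference of the summed laminin beta chains, 0.739 FPKM, was -1.06 with upper-quartile scaling, -0.924 with total-fragment scaling and -0.405 to 1.74 with 1 library left out. Signs changed when 1 library was left out for ITGB1 (log2 fold change -0.060 to 0.20), ITGA6 (-0.012 to 0.15), ITGA5 (-0.19 to 0.0031) and ITGA4 (-0.024 to 0.26). The summed laminin alpha chains were lower in all alternatives run. The replicate block changed no other call than those of ITGB5, ITGAV, LAMB2 and LAMA2 among the chains. Depth limited the 14 chains with under 10 fragments in a library.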
